A study of Homo sapiens with 6 samples.

Results

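The AP-1 family transcription factors were examined as 10 genes, taken by gene name from the deposited count table of 62710 genes. They comprised 3 genes of the JUN subfamily (JUN, JUNB and JUND), 4 of the FOS subfamily (FOS, FOSB, FOSL1 and FOSL2) and 3 of the ATF and MAF subfamilies (ATF3, MAFF and MAFK). Each name matched 1 row, and all 10 were among the 15458 genes with enough counts to be tested. RNA-seq had been run on 6 libraries of A549, an established human lung adenocarcinoma cell line. The 3 control libraries were labelled as receiving no treatment, and in the 3 PS-MP libraries polystyrene microplastics had been added at a labelled 20 mg/mL for 48 h. The unit of that dose could not be checked, and the labels name no irradiation and no genetic change for any library. Whether a group's 3 libraries represent independent cultures is not stated, and p-values therefore reflect library-to-library spread that may be technical.

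After exposure 3 members rose, namely JUN (1.81-fold), FOSL2 (1.35-fold) and JUNB (1.30-fold). None was called lower by edgeR, DESeq2 or limma-voom. At an unadjusted p under 0.05, 5 members were higher and 0 lower by edgeR, and 5 were higher and 1 lower by DESeq2. Over all tested genes, 24.0% had an unadjusted p under 0.05 by edgeR, in either direction. The 3 of 10 members called higher stand beside 4.91% of all tested genes called higher (759 genes), 4.65% called lower (719 genes) and 9.56% called in all. With total counts as sole scaling the genes called over the whole table split into 535 higher and 861 lower. The rise of JUN passed in all 15 alternative analyses run, whereas the calls of JUNB and FOSL2 were each lost when any 1 of 4 libraries was left out. FOS stood at a lower mean level in the PS-MP libraries, but its groups overlapped and it did not pass.

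AP-1 is a dimer of basic leucine zipper (bZIP) proteins that binds DNA at a short palindromic element. JUN proteins can pair with one another or with FOS proteins, while FOS proteins need a JUN partner. Many of these genes are immediate early genes, transcribed within minutes of a growth or stress signal through mitogen-activated protein kinases (MAPK) and then falling back. ATF3 is a stress-induced bZIP factor that can pair with JUN proteins. MAFF and MAFK are small MAF proteins that lack a transactivation domain and serve as partners of NRF2 and BACH1.

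JUN is known, from work in human cells, to act on its own promoter through a variant of the cyclic AMP response element (CRE). The sequences upstream of JUN, ATF3 and JUND are shown because each holds such an element or the CRE itself. That of FOS is shown as an example without a match in the 250 bases searched. The sequences are from RefSeq (GRCh38.p14), which held upstream windows for 8 of the 10 members, and each run ends before the start of the gene in both RefSeq and the deposited table. Capitals mark matches to TGANTCA (the AP-1 site with any base at its centre), TGACGTCA (the CRE), TGACATCA (a CRE-like site) or the CArG box. Matches were searched for on both strands of the 250 bases before the RefSeq start. The runs are chr1:58784049-58784297 on the minus strand, chr1:212565157-212565333 on the plus strand, chr19:18281623-18281872 on the minus strand and chr14:75278578-75278825 on the plus strand.
JUN: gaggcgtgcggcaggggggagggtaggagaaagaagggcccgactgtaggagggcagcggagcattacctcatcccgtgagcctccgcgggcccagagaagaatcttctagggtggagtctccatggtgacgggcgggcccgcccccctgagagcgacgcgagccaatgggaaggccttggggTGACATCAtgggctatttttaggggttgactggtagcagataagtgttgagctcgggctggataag
ATF3: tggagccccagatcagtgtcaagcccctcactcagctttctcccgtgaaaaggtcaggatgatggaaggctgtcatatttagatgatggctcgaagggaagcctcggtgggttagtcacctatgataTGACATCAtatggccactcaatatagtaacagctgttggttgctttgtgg
JUND: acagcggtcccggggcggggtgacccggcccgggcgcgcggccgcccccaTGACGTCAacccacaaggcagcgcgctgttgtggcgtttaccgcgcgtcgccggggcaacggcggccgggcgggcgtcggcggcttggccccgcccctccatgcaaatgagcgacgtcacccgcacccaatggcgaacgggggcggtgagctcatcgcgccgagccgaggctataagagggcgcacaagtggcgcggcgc
FOS: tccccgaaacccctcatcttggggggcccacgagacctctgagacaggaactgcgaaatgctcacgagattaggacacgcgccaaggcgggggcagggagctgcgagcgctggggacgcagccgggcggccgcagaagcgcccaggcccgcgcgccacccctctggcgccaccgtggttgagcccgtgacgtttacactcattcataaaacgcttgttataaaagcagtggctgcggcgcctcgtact
JUN and ATF3 each held TGACATCA, at 67 to 60 and 123 to 116 bases before the start. That element was present in 2.37% of the 35116 upstream windows in the table. JUND held TGACGTCA at 200 to 193 bases before its start and MAFF held it at 54 to 47 bases, against 1.65% of all windows. TGANTCA was found in 6.57% of all windows and the CArG box in 1.16%, and neither in a window of a member. ATF3 and MAFF each had 2 windows for different RefSeq starts, and the match was in the first, with none in the second. Both MAFF windows, the second of ATF3 and that of FOSL2 lie inside the genes as the deposited table bounds them and are not printed. The windows of FOS, JUNB, FOSB and FOSL2 held no match within 250 bases, and bases further upstream were not searched for any member. Of the members called higher, JUN held a match and JUNB and FOSL2 held none, and JUND, ATF3 and MAFF held one without being called. Log2 fold changes of members with a match were 0.85 (JUN), 0.72 (ATF3), 0.50 (JUND) and −0.20 (MAFF). Those of members searched without a match were 0.43 (FOSL2), 0.37 (JUNB), −0.03 (FOSB) and −0.38 (FOS). FOSL1 and MAFK had no window, and whether matches go with the changes was not tested. A match describes these letters and not a bound site.

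Total counts ran from 17013293 to 21316451 per library, which places 3 counts at 0.137 to 0.177 CPM (counts scaled to library size) after TMM scaling. Replicate 3 stood apart in both groups. Its log2 CPM correlated with the other libraries of its group at 0.981 to 0.985, against 0.994 between control replicates 1 and 2 and 0.992 between PS-MP replicates 1 and 2. Sampling noise did not account for the difference within the closest pair, control replicates 1 and 2, whose chi-square was 4.19 per degree of freedom. The keratin KRT18 stood at 2540 CPM in the controls, while the epithelial marker EPCAM was low (2.47 CPM) and CDKN2A, which A549 is known to lack, had 0 counts. Of 5 leukocyte markers 1 was tested, and the summed level, nearly all of it CD14, was 19.7 to 24.0 CPM in controls and 23.8 to 36.7 CPM in PS-MP libraries, with CD3E at 0. Of 5 fibroblast markers 4 were tested and DCN was called higher, and their sum was 6.78 to 8.69 against 10.1 to 14.4 CPM. The 5 endothelial markers summed to 0.275 to 1.06 against 0.695 to 1.01 CPM. The part of these markers in the AP-1 results was not tested.

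JUN, which encodes c-Jun, the substrate that gave the JNK kinases their name, showed the clearest change. It had 13.3, 13.6 and 16.4 CPM in control replicates 1 to 3 and 27.0, 27.6 and 23.7 CPM in the PS-MP libraries. The groups did not overlap, and the lowest PS-MP library lay well above the highest control. The rise was 1.81-fold (95% interval 1.48 to 2.21; log2 fold change 0.85 ± 0.13 SE, adjusted p = 0.00227 in the edgeR fit across all tested genes). Over the 15 alternatives the log2 fold change lay between 0.79 and 1.02 and the adjusted p between 1.35e-06 and 0.0225. In bulk RNA, a change in the number of cells that carry a transcript and a change in its amount per cell cannot be told apart. In the deposited annotation (GRCh38) JUN (ENSG00000177606) lies on chromosome 1 at 58776845 to 58784048, on the minus strand.

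JUNB, which can act as a positive or a negative partner within AP-1, had 50.3, 46.0 and 49.1 CPM in the controls, against 61.0, 65.01 and 62.4 CPM in the PS-MP libraries. Replicates were close in both groups and did not overlap between them. The rise was 1.30-fold (95% interval 1.12 to 1.502; adjusted p = 0.0344). The call was lost when replicate 1 or replicate 2 of either group was left out (adjusted p from 0.104 to 0.168), when total counts were the sole scaling (0.0796) and when low counts were not filtered (0.0634), while the log2 fold change stayed between 0.31 and 0.40. JUNB (ENSG00000171223) lies on chromosome 19 at 12791486 to 12793315 and overlaps HOOK2 on the other strand. HOOK2 had 191 to 272 counts per library, and since the strand setting of the counting is not given, reads in the shared stretch are uncertain.

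JUND, the broadly expressed JUN gene linked to restraint of growth, had 15.7, 14.6 and 11.2 CPM in the controls, against 20.7, 23.2 and 14.5 CPM in the PS-MP libraries. Replicate 3 was the lowest of its group on both sides, and PS-MP replicate 3 lay within the control range. The log2 fold change was 0.50 (95% interval 0.08 to 0.91), which was not called (adjusted p = 0.137). It passed without PS-MP replicate 3 (log2 fold change 0.67, adjusted p = 0.0267), without both replicate 3 libraries (0.54, adjusted p = 0.00324) and with no filter on low counts (adjusted p = 0.0314). JUND (ENSG00000130522) is on chromosome 19 at 18279694 to 18281622.

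**Figure D1:**
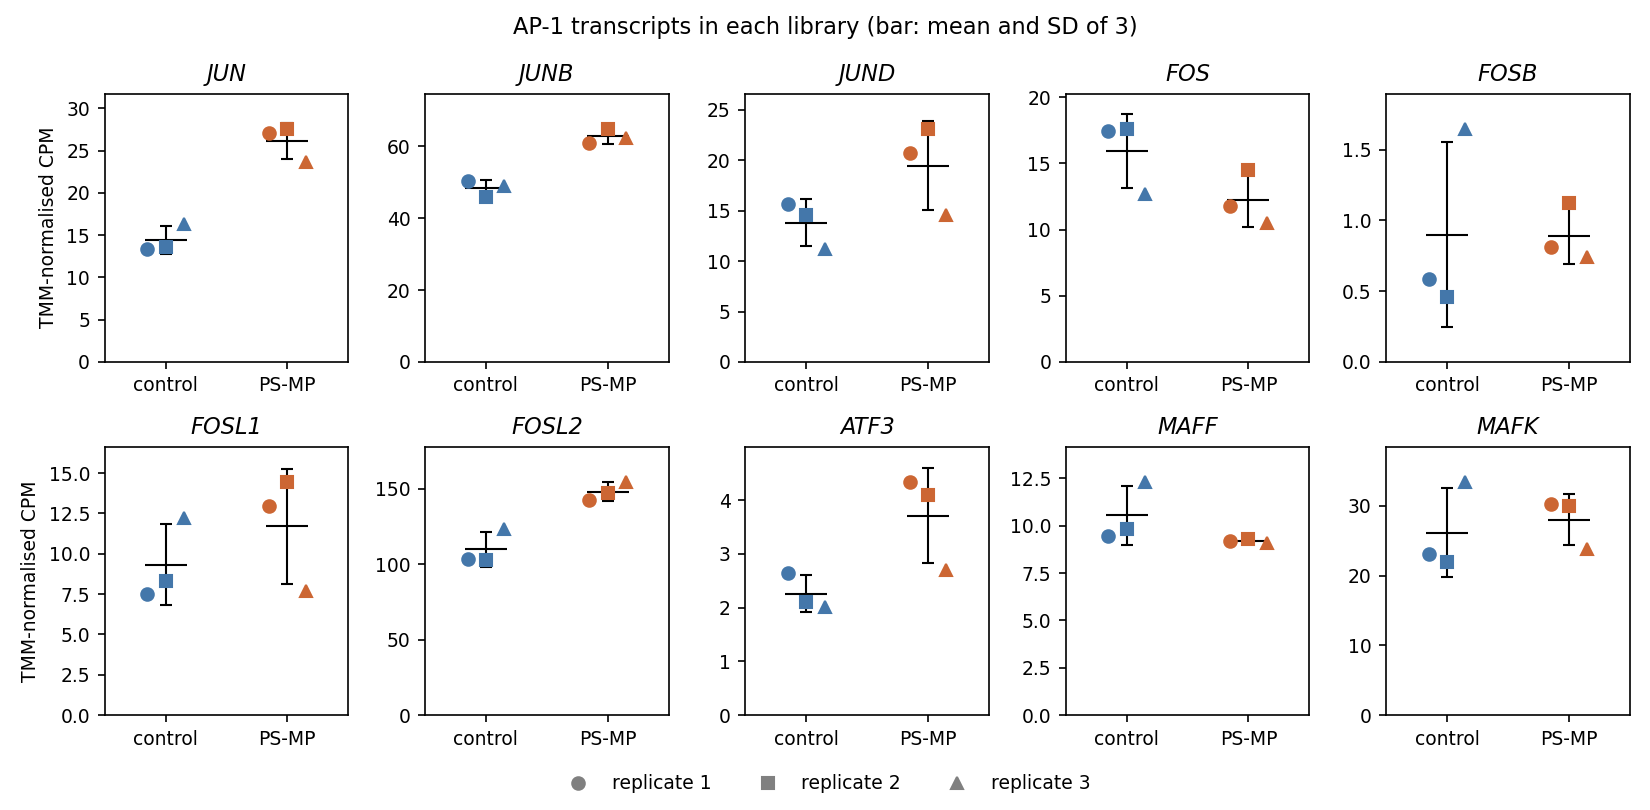
TMM-normalised CPM of the 10 AP-1 transcripts in each library, with a separate linear axis from 0 for each gene; points are libraries, shaped by replicate number, and bars give the mean and SD of 3. JUN, JUNB, FOSL2 and ATF3 lie higher in every PS-MP library than in any control, and replicate 3 (triangles) sits at the edge of its group for most genes.

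Among the FOS genes, FOSL2, which encodes FRA2, was the member that rose. It had 103, 103 and 123 CPM in the controls, against 143, 147 and 154.5 CPM in the PS-MP libraries. Control replicate 3 was the highest control, and the groups did not overlap. The rise was 1.35-fold (95% interval 1.149 to 1.58; adjusted p = 0.0265). As for JUNB, the call was lost when replicate 1 or replicate 2 of either group was left out (adjusted p from 0.0783 to 0.141) and when total counts were the sole scaling (0.0711), and the log2 fold change stayed between 0.36 and 0.52. FOSL2 (ENSG00000075426) is on chromosome 2 at 28392448 to 28417317, where the antisense FOSL2-AS1 (4 to 15 counts per library) and 1 further non-coding gene (0 to 7 counts) overlap it.

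FOS, the founding FOS gene and a classical target of serum response factor, had 17.4, 17.6 and 12.7 CPM in the controls, against 11.8, 14.5 and 10.5 CPM in the PS-MP libraries. Control replicate 3 fell between the PS-MP values, so the groups overlapped. The log2 fold change was −0.38 (95% interval −0.76 to 0.01, adjusted p = 0.219). Its sign was negative in all 15 alternatives, and it passed in 1 of them, without both replicate 3 libraries (log2 fold change −0.42, adjusted p = 0.0238). FOS (ENSG00000170345) is on chromosome 14 at 75278826 to 75282230.

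FOSL1, which encodes FRA1, a factor tied to invasion in carcinoma cells, was not called with all libraries and was called without replicate 3. It had 7.48, 8.32 and 12.2 CPM in the controls, against 13.0, 14.5 and 7.69 CPM in the PS-MP libraries. Replicate 3 was the highest control and the lowest PS-MP library, and the groups overlapped. With all libraries the log2 fold change was 0.32 (95% interval −0.23 to 0.87, adjusted p = 0.47), and without both replicate 3 libraries it was 0.79 (adjusted p = 0.000935). FOSL1 (ENSG00000175592) is on chromosome 11 at 65892049 to 65900573.

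FOSB was close to the limit of detection, with 10, 10 and 36 counts in the controls, against 14, 20 and 14 counts in the PS-MP libraries. A single library, control replicate 3, held the highest value at 1.65 CPM, while the other 5 lay between 0.457 and 1.12 CPM. The log2 fold change of −0.03 (95% interval −1.09 to 1.02, adjusted p = 0.978) turned to 0.77 without that library. A difference of either sign was not resolved at this depth. FOSB (ENSG00000125740, chromosome 19 at 45467995 to 45475179) overlaps ERCC1 on the other strand, which had 1480 to 2160 counts per library, so its few counts are uncertain.

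ATF3 was low but higher in every PS-MP library than in any control. It had 2.65, 2.10 and 2.02 CPM in the controls, against 4.34, 4.09 and 2.71 CPM in the PS-MP libraries. The separation was narrow, since PS-MP replicate 3 exceeded control replicate 1 only slightly. The log2 fold change was 0.72 (95% interval 0.18 to 1.27), which was not called (adjusted p = 0.0989). It passed without PS-MP replicate 3 (0.91, adjusted p = 0.0282) and without both replicate 3 libraries (0.84, adjusted p = 0.0121). ATF3 (ENSG00000162772) is on chromosome 1 at 212565334 to 212620777.

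The small MAF genes showed no called change. MAFF had 9.48, 9.83 and 12.3 CPM in the controls, against 9.21, 9.30 and 9.07 CPM in the PS-MP libraries. The PS-MP values lay just under the lowest control, with a log2 fold change of −0.20 (95% interval −0.54 to 0.14, adjusted p = 0.465) that shrank to −0.07 without both replicate 3 libraries. MAFK had 23.0, 21.9 and 33.4 CPM in the controls, against 30.3, 29.9 and 23.8 CPM in the PS-MP libraries. Replicate 3 again crossed the groups, and the log2 fold change was 0.10 with all libraries (95% interval −0.28 to 0.48, adjusted p = 0.776) and 0.42 without both replicate 3 libraries (adjusted p = 0.00457). MAFF (ENSG00000185022) is on chromosome 22 at 38200767 to 38216507 and overlaps PLA2G6 (143 to 271 counts), and MAFK (ENSG00000198517) is on chromosome 7 at 1530702 to 1543043 and overlaps TMEM184A (147 to 249 counts), both on the other strand.

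**Figure D2:**
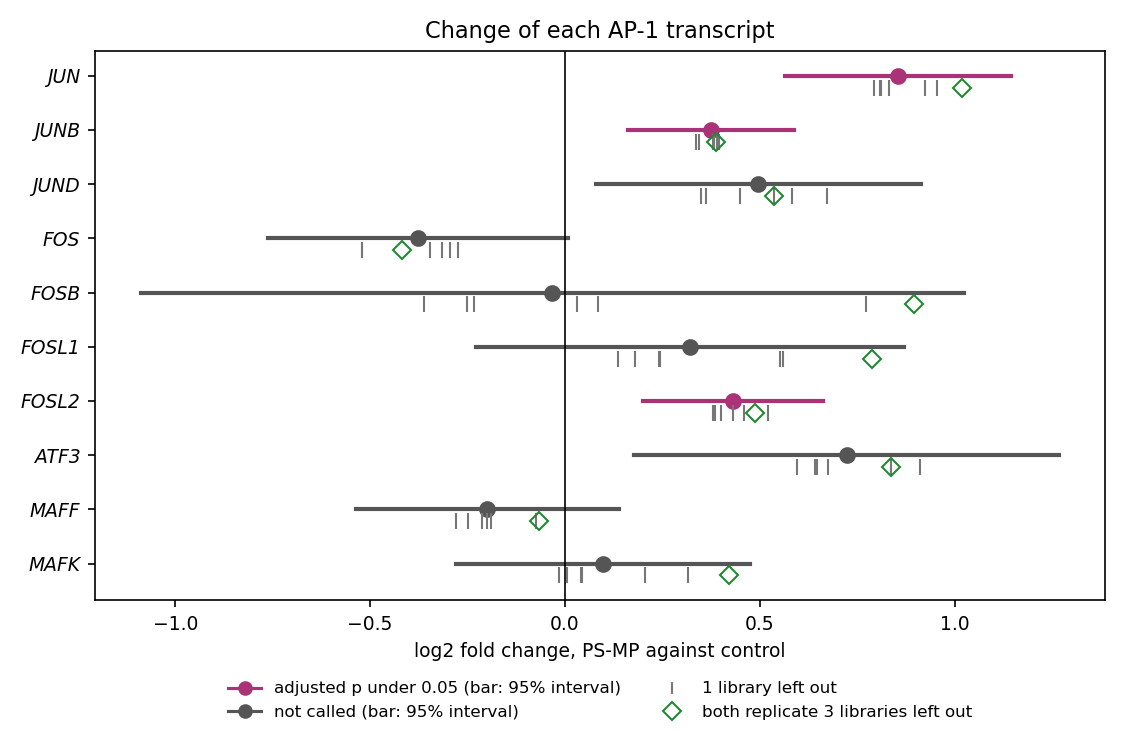
Log2 fold change of each AP-1 transcript in PS-MP against control libraries (points) with its 95% interval (bars); ticks below are fits with 1 library left out and diamonds the fit without both replicate 3 libraries. JUN stays between 0.79 and 1.02 in every fit, while FOSB, FOSL1 and MAFK move to 0.90, 0.79 and 0.42 without replicate 3.

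Across the family, 4 members lay higher and 1 lower in the PS-MP libraries without overlap between the groups. That is 5 of 10 members, beside 32.0% of all tested genes without overlap, 16.6% of them higher and 15.4% lower. The median log2 fold change of the 10 members was 0.35, against 0.0019 over all tested genes, and 7 of the 10 were above 0. Replicate 3 carried much of the spread. Of the 10 members, 6 were highest in control replicate 3 among the controls and 3 were lowest there, and 8 were lowest in PS-MP replicate 3 among the PS-MP libraries and 1, FOSL2, highest. Replicate 3 also stood apart over all tested genes. The shares of all tested genes in these orders were not counted, so the orders are not shown to be particular to the members. Leaving out PS-MP replicate 3 gave 5 members called higher, beside 885 of all 15752 genes tested in that fit. Leaving out both replicate 3 libraries gave 7 higher and FOS lower. In that fit 2093 of all 15503 tested genes were higher and 2036 lower (26.6% called in all). With replicate 1 or replicate 2 of either group left out in turn, the count was 1, which was JUN.

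**Figure D3:**
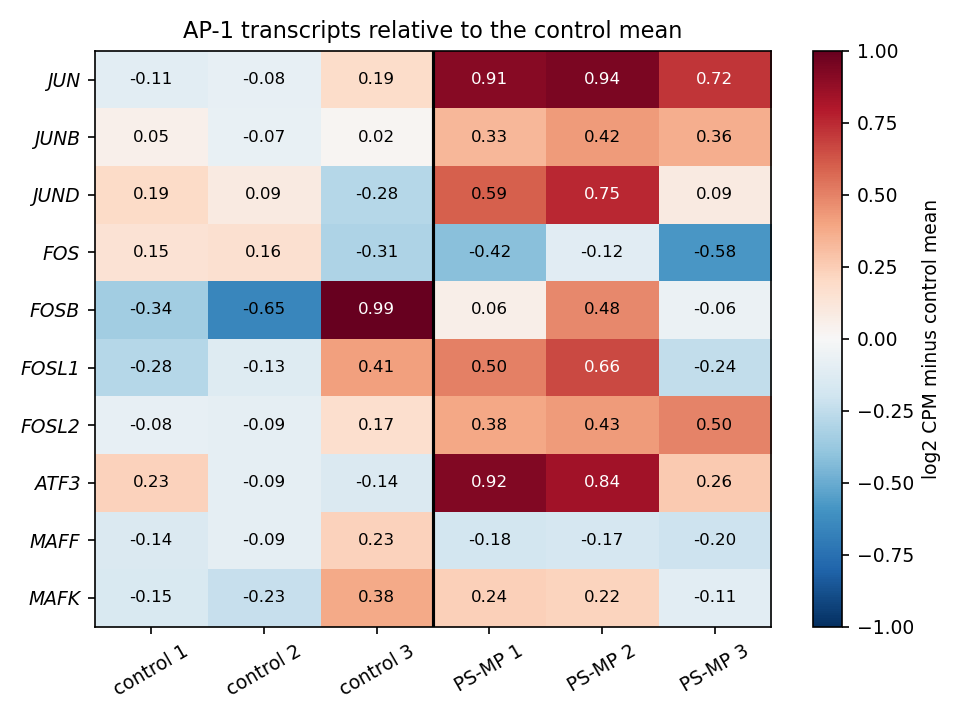
Log2 CPM of each AP-1 transcript in each library minus the mean of the 3 controls; red is higher and blue lower, and the line divides the groups. JUN, JUNB and FOSL2 are above 0.3 in all 3 PS-MP libraries, whereas FOSL1 and MAFK are above 0.2 in PS-MP replicates 1 and 2 and below 0 in replicate 3.

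Set per kilobase of exon, so that genes could be compared with each other, JUNB and FOSL2 were the most abundant AP-1 transcripts in both groups. In the controls JUNB stood at 26.6 ± 1.21 CPM per kb and FOSL2 at 15.3 ± 1.62 (mean ± SD, n = 3), followed by JUND (7.42 ± 1.24), MAFK (5.86 ± 1.43), FOSL1 (4.94 ± 1.33), FOS (4.92 ± 0.865) and JUN (4.07 ± 0.477). Among the 5 genes from JUND to JUN, neighbours in that order overlapped, so the order of neighbours is not resolved. The lowest JUND control (6.025 CPM per kb) lay above the highest FOS (5.449) and JUN (4.62) controls. The lowest MAFK control (4.911) lay above the highest JUN control. MAFF (1.88 ± 0.276), ATF3 (0.558 ± 0.0851) and FOSB (0.162 ± 0.118) followed, each separate from the next. In the PS-MP libraries JUN stood at 7.38 ± 0.605 CPM per kb, in the fourth place and overlapping JUND above and MAFK below. These levels depend on the exon lengths of GENCODE release 29, which count every annotated isoform.

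The summed level of the JUN subfamily was 39.8, 37.0 and 37.6 CPM per kb in the controls, against 52.3, 56.0 and 48.8 CPM per kb in the PS-MP libraries. That of the FOS subfamily was 23.9, 24.3 and 27.9 against 30.6, 32.9 and 29.03 CPM per kb. Both sums were higher in all PS-MP libraries, most of each coming from 1 gene, JUNB or FOSL2. The sum of ATF3, MAFF and MAFK overlapped, at 7.51, 7.18 and 10.2 against 9.51, 9.38 and 7.63 CPM per kb. JUN made up 5.28%, 5.61% and 6.10% of the summed level of the 10 members in the controls, against 8.27%, 7.95% and 7.82% in the PS-MP libraries. FOS made up 7.56%, 7.96% and 5.18% in the controls, against 3.93%, 4.56% and 3.80% in the PS-MP libraries. The ratio of JUN to FOS, both per kb, was 0.698, 0.704 and 1.18 in the controls, against 2.10, 1.74 and 2.06 in the PS-MP libraries. The groups did not overlap in this ratio, which was chosen after its values were seen. The mean log2 ratio was −0.26 ± 0.43 in the controls and 0.97 ± 0.15 in the PS-MP libraries (SD, n = 3), a difference of 1.23 that is given as a description.

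**Figure D4:**
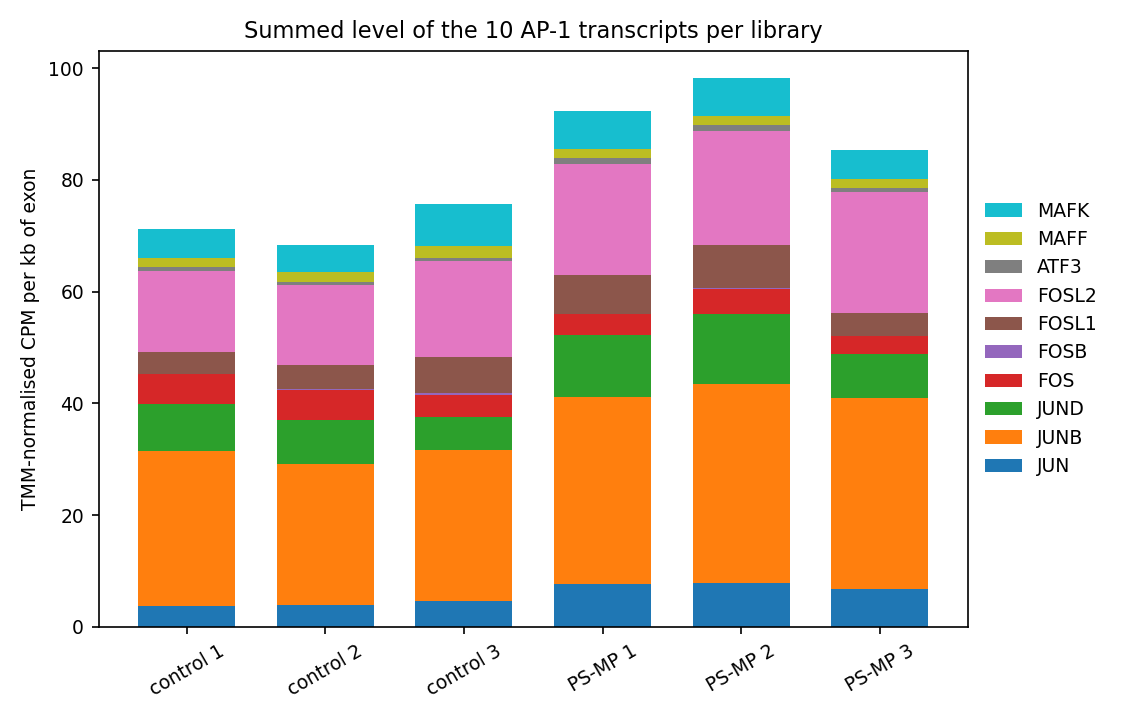
Stacked levels of the 10 AP-1 transcripts in each library, in TMM-normalised CPM per kb of exon on a linear axis from 0; each colour is a gene. JUNB and FOSL2 make up most of each bar, and the total is 68.4 to 75.7 CPM per kb in controls and 85.4 to 98.2 in PS-MP libraries.

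The counts in the gene lists around AP-1 are to be read against the 4.91% of all tested genes called higher and the 4.65% called lower. Counts at an unadjusted p under 0.05 are to be read against 24.0% of all tested genes, in either direction. Of 20 tested MAPK pathway kinases 1 was higher and none lower (median log2 fold change −0.04), the same counts as by DESeq2 and limma-voom and near the share over all genes. At an unadjusted p under 0.05 the edgeR counts were 2 and 0. This was MAP2K2, which encodes the ERK kinase MEK2, with 93.3, 88.8 and 87.8 CPM in controls and 133, 140 and 115 CPM in PS-MP libraries (1.44-fold, adjusted p = 0.00973). It lost its call without PS-MP replicate 1 (adjusted p = 0.0586). MAPK8, which encodes JNK1, stood at 30.5 CPM in controls and 25.6 CPM in PS-MP libraries (adjusted p = 0.23). None of the 6 tested serum response factor and partner genes, and none of the 9 tested genes of AP-1 protein turnover and corepression, passed by edgeR, DESeq2 or limma-voom. With 9.56% of all tested genes called, a count of 0 in lists this short is near the background and is no result about these genes. At an unadjusted p under 0.05, edgeR placed 2 genes of the first list and 1 of the second lower, and 0 higher. With 24.0% of all tested genes at such a p, these small counts are no result about the lists either. Protein amount and phosphorylation, through which these kinases act on JUN and FOS, were not measured.

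Of 20 tested other bZIP genes 2 rose and none fell by any of the 3 tools (median 0.11). At an unadjusted p under 0.05 by edgeR, 3 were higher and 1 lower. Over all tested genes 4.91% were called higher and 4.65% lower, and called counts in a list of this size lie near those shares. At an unadjusted p under 0.05 the share was 24.0%, in either direction. BATF2, an interferon-inducible partner of JUN proteins, had 0.648, 1.14 and 0.596 CPM in controls and 2.26, 2.80 and 2.12 CPM in PS-MP libraries (2.97-fold, adjusted p = 0.0107). It lost its call without PS-MP replicate 2 (adjusted p = 0.0594). CEBPB, a regulator of inflammatory genes, rose from 97.3 ± 4.48 to 126 ± 2.17 CPM (1.29-fold, n = 3 per group, adjusted p = 0.0302). Its call was lost when replicate 1 or replicate 2 of either group was left out, when total counts were the sole scaling and when low counts were not filtered (adjusted p up to 0.153). JDP2, a repressor of AP-1 sites, and MAFG, the remaining small MAF gene, had log2 fold changes of 0.24 and 0.13 (adjusted p = 0.413 and 0.542).

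Of 26 tested genes widely described as AP-1 targets, 10 were higher and none lower by each of the 3 tools (median 0.35). At an unadjusted p under 0.05 by edgeR, 14 were higher and 0 lower. The shares over all tested genes were 4.91% higher and 4.65% lower, and 24.0% at an unadjusted p under 0.05 in either direction. The matrix metalloproteinase genes MMP3, MMP9, MMP10 and MMP13, 4 further members of the list, were too low to test. The list includes FOSL1, itself an AP-1 member and not called, and was drawn up with earlier results of these data known. IL6, a cytokine gene, rose from 0.562 ± 0.0229 to 4.92 ± 0.474 CPM (8.67-fold, n = 3 per group, adjusted p = 7.01e-05). CXCL8, which encodes the neutrophil attractant IL-8, rose from 119 ± 17.0 to 346 ± 64.1 CPM (2.92-fold, n = 3 per group, adjusted p = 0.000195). Both genes kept their calls in all 15 alternatives. Several of these genes are also known NF-kB targets, so the list does not separate the 2 factors. Without both replicate 3 libraries 20 of its members were called higher and 1 lower. In that fit 2093 of all 15503 tested genes were called higher and 2036 lower, 26.6% in all.

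Of 23 tested other immediate early genes, 3 rose and 2 fell (median 0.15), beside 4.91% and 4.65% of all tested genes. BTG2, an antiproliferative gene that is also a p53 target, rose from 17.3 ± 1.25 to 43.9 ± 6.95 CPM (2.53-fold, adjusted p = 0.000197). ZFP36, which encodes an mRNA-destabilising protein, and DUSP5, an ERK phosphatase, rose by log2 fold changes of 0.53 and 0.52 (adjusted p = 0.0101 and 0.0118). MYC had 160, 149 and 218 CPM in controls and 112, 122 and 108 CPM in PS-MP libraries, with no overlap (1.54-fold lower, adjusted p = 0.0187). NR4A1, an orphan nuclear receptor gene, was 1.71-fold lower (14.4 ± 4.17 against 8.37 ± 1.34 CPM, adjusted p = 0.0439). EGR1, like FOS a target of serum response factor, had a log2 fold change of −0.48 (adjusted p = 0.361). MYC lost its call when PS-MP replicate 1 or 2 was left out (adjusted p up to 0.0891). ZFP36, DUSP5 and NR4A1 lost theirs when any of 3, 3 and 4 libraries was left out, and NR4A1 also with limma-voom (adjusted p up to 0.0666, 0.0749 and 0.176).

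Of 12 tested genes of the stress response in which ATF3 takes part, 3 rose and none fell (median 0.32), again beside 4.91% and 4.65% of all tested genes. None was lower by DESeq2, by limma-voom or at an unadjusted p under 0.05. At that p edgeR placed 5 higher, beside 24.0% of all tested genes in either direction. The 3 called higher were SESN2 (7.62 ± 0.722 against 17.4 ± 1.94 CPM, 2.28-fold, adjusted p = 0.000577), the growth arrest gene GADD45A (28.0 ± 3.51 against 49.7 ± 2.496 CPM, 1.78-fold, adjusted p = 0.00146), both also p53 targets, and CEBPB. The 12 tested genes regulated through small MAF dimers held 2 that rose, FTH1 and HMOX1 (1.72-fold and 1.70-fold), and none that fell by any of the 3 tools or at an unadjusted p under 0.05 (median 0.22), beside the same shares of all genes. At that unadjusted p edgeR placed 5 of these 12 higher. HMOX1 was also among the AP-1 targets. Both lost their calls when any of 4 libraries was left out (adjusted p up to 0.086).

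**Figure D5:**
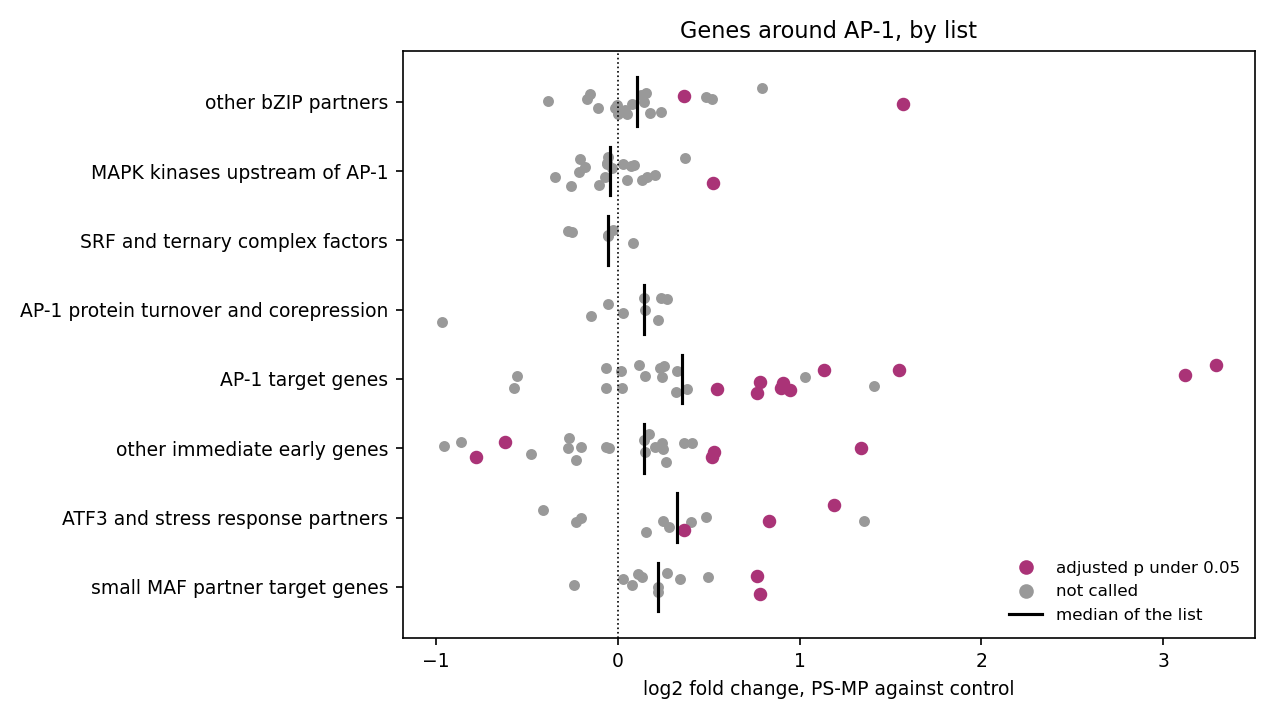
Log2 fold change of every tested gene in the 8 lists around AP-1; each point is a gene, purple where the adjusted p is under 0.05 in edgeR's test, and black lines are list medians. AP-1 target genes hold 10 purple points, all to the right of 0, while the kinase list and the serum response factor list centre near 0.

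Over the 6 libraries, the tested genes whose log2 CPM followed JUN most closely were ATP6V0C (Pearson r = 0.999), RAB1A (0.997), SDC1 (0.996), TCEAL9 (0.996) and PIP4P2 (0.995). Their own log2 fold changes were 0.48, 0.29, 0.21, 0.40 and 0.19, and TCEAL9 passed the test (adjusted p = 0.0304). These values describe 6 libraries in 2 groups, and 618 of 14430 genes with a symbol reached an r of at least 0.9 with JUN, and they say nothing of shared control.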

How the data were processed

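Whole-number counts per Ensembl gene, labelled as merged featureCounts counts, were used as deposited by the authors, for 62710 genes in 6 libraries. The submitters' processing notes name fastp, HISAT2, StringTie, RSEM and DESeq2, and the build GRCh38, with no version or role. The annotation release, the strand setting and the handling of multi-mapped reads are not given in the sources used here. Per the labels' protocols, libraries were poly(A)-selected and stranded.

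The fit used R 4.3.3 and edgeR 4.0.16, filterByExpr on the group, TMM factors and a two-sided robust quasi-likelihood test, adjusted by Benjamini-Hochberg over 15458 genes with a threshold of 0.05. Unless another tool is named, adjusted p-values come from this test. Standard errors and 95% intervals are approximate and were derived from the F statistic. CPM are TMM-normalised. Floors of 3 counts cover counting error only. Levels per kb use exon lengths from GENCODE release 29, found for 92.9% of the genes, since the count table gives no lengths. The members, gene lists and rule for named genes were chosen with earlier results of these data known. The rule names all members, and in each list the called genes with the 3 smallest adjusted p, and the 5 genes that correlate best with the member of smallest adjusted p. MYC, NR4A1, MAPK8, EGR1, JDP2, MAFG and the genes too low to test were named after their values were seen. A result for 1 gene that the rule names is not reported here. Nothing in the labels says that equal numbers mark a shared culture or day, so no pairing was used. Same-numbered libraries of the groups also did not deviate together. The fit was repeated with DESeq2 1.42.0, voom in limma 3.58.1, 3 other scalings (RLE, upper quartile, total counts), 2 other filters (none, or a mean of 10 counts), a replicate block, each library left out, and both replicate 3 libraries left out. The fit was tested on simulated data. There it called 29.8% of genes changed 1.5-fold, 71.6% of those changed 2-fold and 97.4% of those changed 4-fold.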

Additional observations from a re-analysis of the deposited data

How the results depend on the processing

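JUN was called higher in all 15 alternatives, and JUNB and FOSL2 kept their direction in all of them. The count of members called higher, 3 with all libraries, was 1 with total counts as the sole scaling and 1 with the replicate block, 1 to 5 with single libraries left out, and 7 without both replicate 3 libraries, where 1 member was lower. Genes called higher over the whole table were 333 with the replicate block, 2093 without both replicate 3 libraries and 356 to 885 with single libraries left out. Genes called lower were 417, 2036 and 415 to 811 in the same order. FOSB turned from −0.03 to 0.17 with limma-voom, 0.099 with the replicate block and 0.90 without both replicate 3 libraries, and ranged from −0.36 to 0.77 over the fits with 1 library left out, positive in 3 of them (0.77, 0.031 and 0.085). MAFK turned to −0.016 without control replicate 2 and reached 0.32 without control replicate 3, and EGR1 to 0.053 without both replicate 3 libraries. The mean level of MAFF in the PS-MP libraries was 1.60 in place of 1.64 CPM per kb with total counts as the sole scaling. The cause was not tested, beyond leaving out a library giving fewer samples. Deviations from the group means correlated at −0.095, −0.108 and −0.181 between same-numbered control and PS-MP libraries, no library correlated best with its own number, and the replicate block ended the calls of JUNB (adjusted p = 0.138), FOSL2 (0.0779), CEBPB, DUSP5, ZFP36, MYC and NR4A1. Counts of 10 to 36 for FOSB and 44 to 75 for ATF3 limit what these libraries can resolve for both genes.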
